A study of Homo sapiens with 6 samples.

Results

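The tubulin modifying enzymes described here are 10 genes of tubulin tyrosination, glutamylation and acetylation, which encode enzymes, a partner protein (SVBP) and a TTLL family member with no established ligase activity (TTLL12): TTL, VASH1, SVBP, TTLL4, TTLL5, TTLL7, TTLL12, AGTPBP1, ATAT1 and HDAC6. They were chosen by function and found by Ensembl gene ID among 38900 rows of the deposited table, and all 10 had a row. RNA was sequenced after polyA selection from 6 samples of hTERT RPE1, an established human retinal pigment epithelial line immortalised with telomerase. The cells had been left at full confluency for 5 days until quiescent, and then received 100 nM combretastatin A4 (CA4) or, as the control, 0.1% DMSO for 6 hours. The labels do not say whether the CA4 samples also held DMSO. CA4 binds tubulin at the colchicine site and depolymerizes microtubules. There were 3 libraries per treatment, and the comparison asks whether transcripts of these enzymes change when microtubules are taken apart in cells at rest. The libraries come from a single cell line, and nothing in the labels ties them to separate cultures, so p-values measure the spread between these libraries only. In bulk RNA, fewer cells of a type and less RNA per cell cannot be told apart.

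Microtubules are built from alpha and beta tubulin, and their surface is marked after assembly by enzymes that work in opposition. Most alpha tubulins are made with a tyrosine at the end of the chain. VASH1 with its partner SVBP cuts this tyrosine off, mainly on polymerized microtubules, and TTL puts it back on free tubulin dimers. Enzymes of the TTLL family attach chains of glutamate to the acidic tails of tubulin, and cytosolic carboxypeptidases such as AGTPBP1 shorten them. ATAT1 acetylates a lysine of alpha tubulin inside the microtubule, and HDAC6 takes the acetyl group off.

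The sites these enzymes act on can be read in the alpha tubulin messages. The last 30 coding bases before the stop codon, 5′ to 3′, are shown for 3 of the 5 alpha tubulin genes with enough reads to be tested, from GENCODE 29 transcripts, with the last amino acid codon in capitals. They are shown because this codon decides whether a newly made chain carries the tyrosine that VASH1 removes and TTL restores.
TUBA1C: gctgacggagaggatgagggtgaagagTAT
TUBA4A: tcctatgaggacgaggatgagggagaaGAA
TUBA8: tttgaagaagaaaatgaaggggaggaaTTT
TUBA1C ended in TAT, a tyrosine codon, and 3 of the 5 tested genes had a tyrosine codon at the end. TUBA4A ended in GAA, a glutamate codon, and TUBA8 in TTT, a phenylalanine codon. The runs of gag and gaa codons before the end encode the glutamates to which side chains are attached. The acetylated lysine is codon 40, in capitals in its TUBA1A context.
TUBA1A codon 40: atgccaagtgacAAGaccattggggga

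The 6 libraries held 19524936 to 22538004 recovered reads, and the values below are the authors' normalized counts, in which 1 read is worth 0.935 to 1.12. Of the retinal pigment epithelium markers, MITF and OTX2 were read in every library, with DMSO means of 885 and 533 normalized counts, and RPE65, with a mean of 27.6, was near the bottom of the tested genes. The other 7 of the 10 markers were low, with DMSO means from 0.317 for TYR to 77.3 for BEST1, and RLBP1, LRAT, TYR and TYRP1 averaged under 10 normalized counts. The keratins KRT8 and KRT18 were abundant. Of 3 multiciliated cell markers, FOXJ1 was at 0 in all libraries and DNAI1 at 0 to 0.967, but DNAH5 was at 17.1 to 78.2 in DMSO and 83.0 to 177.8 in CA4 (log2 fold change 1.46, limma adjusted p = 0.179). Of 3 leukocyte markers, CD3E was at 0 in all libraries, PTPRC at 2.81 to 10.6 and CD68 at 499.7 to 920.9. The summed level of 5 markers of dividing cells was 5152 to 10718 normalized counts in DMSO and 3075 to 8592 in CA4, so some cells in every library carried cell cycle transcripts. Replicate 1 was the highest of its group in this sum in both treatments. The summed level of 3 endothelial markers was 944 to 1427 in DMSO and 1304 to 3224 in CA4, highest in CA4 replicate 3. The summed level of the 10 retinal pigment epithelium markers was 1147 to 1854 in DMSO and 652 to 1058 in CA4, lower in every CA4 library. OTX2 fell, with a log2 fold change of -1.11 (limma adjusted p = 0.0158), while MITF at -0.98 (0.1), PMEL at 0.30 (0.744) and SERPINF1 at 0.15 (0.871) did not pass. The part of these levels in the enzyme values was not tested.

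None of the 10 enzyme transcripts passed the threshold between CA4 and DMSO. The test was limma's moderated test on log2(normalized count + 1), and a gene passed where its Benjamini-Hochberg adjusted p over all 13928 tested genes was under 0.05. All 10 enzymes averaged 10 or more normalized counts over the libraries and so entered the test. Of all tested genes 4.94% passed in either direction. At an unadjusted p under 0.05 there were 2 of the 10, TTLL5 and TTLL12, against 23.0% of all tested genes. With edgeR on the recovered reads 0 of the 10 passed, and with DESeq2 1 did, TTLL5, against 4.62% and 11.6% of all tested genes. Of the 10 log2 fold changes 4 were above and 6 below 0, with a median of -0.034 against -0.0082 over all tested genes. In 3 of the 10, TTLL5, SVBP and AGTPBP1, every CA4 library lay below every DMSO library, which held for 13.4% of all tested genes. In 0 of the 10 did every CA4 library lie above, against 14.3%, and the share without overlap in either direction was 27.7%.

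**Figure D1:**
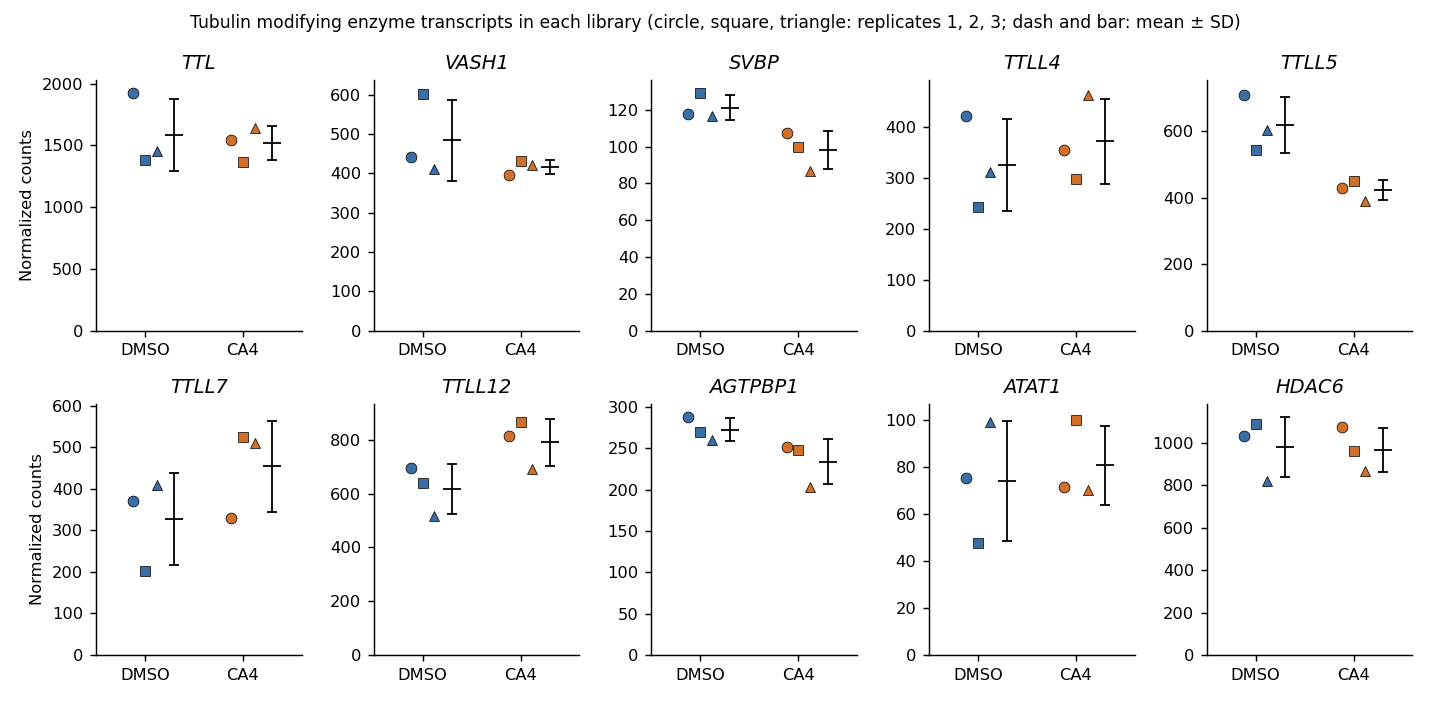
Normalized counts of the 10 enzyme transcripts in each of the 3 DMSO and 3 CA4 libraries, with each vertical axis starting at 0, symbols for replicates and a dash and bar for the mean ± SD. The groups overlap in 7 panels; in those of SVBP, TTLL5 and AGTPBP1 all CA4 libraries lie below all DMSO libraries.

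Most tubulin transcripts, whose products are the substrates, fell. Of 11 tested alpha and beta tubulin genes 9 passed, all 9 lower in CA4, and genes that passed as lower made up 1.97% of all tested genes. TUBB3 had a log2 fold change of -2.73, TUBA1A of -2.66 and TUBB2A of -1.76, with adjusted p-values in limma of 2.87e-04, 0.00154 and 0.00176. TUBA4A fell least of the 9, with a log2 fold change of -0.88 (95% interval -1.29 to -0.47, limma adjusted p = 0.0356), and its call was lost in each of the 6 fits that left out a library (0.0598 to 0.134) and without the variance trend (0.0829). The 95% intervals of the 10 enzymes, which are not adjusted for the number of genes, had lower ends between -0.85 for TTLL5 and 0.025 for TTLL12. They lay above the values of TUBB3, TUBA1A and TUBB2A, while those of 5 enzymes, TTLL5, SVBP, VASH1, ATAT1 and AGTPBP1, overlapped the interval of TUBA4A.

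**Figure D2:**
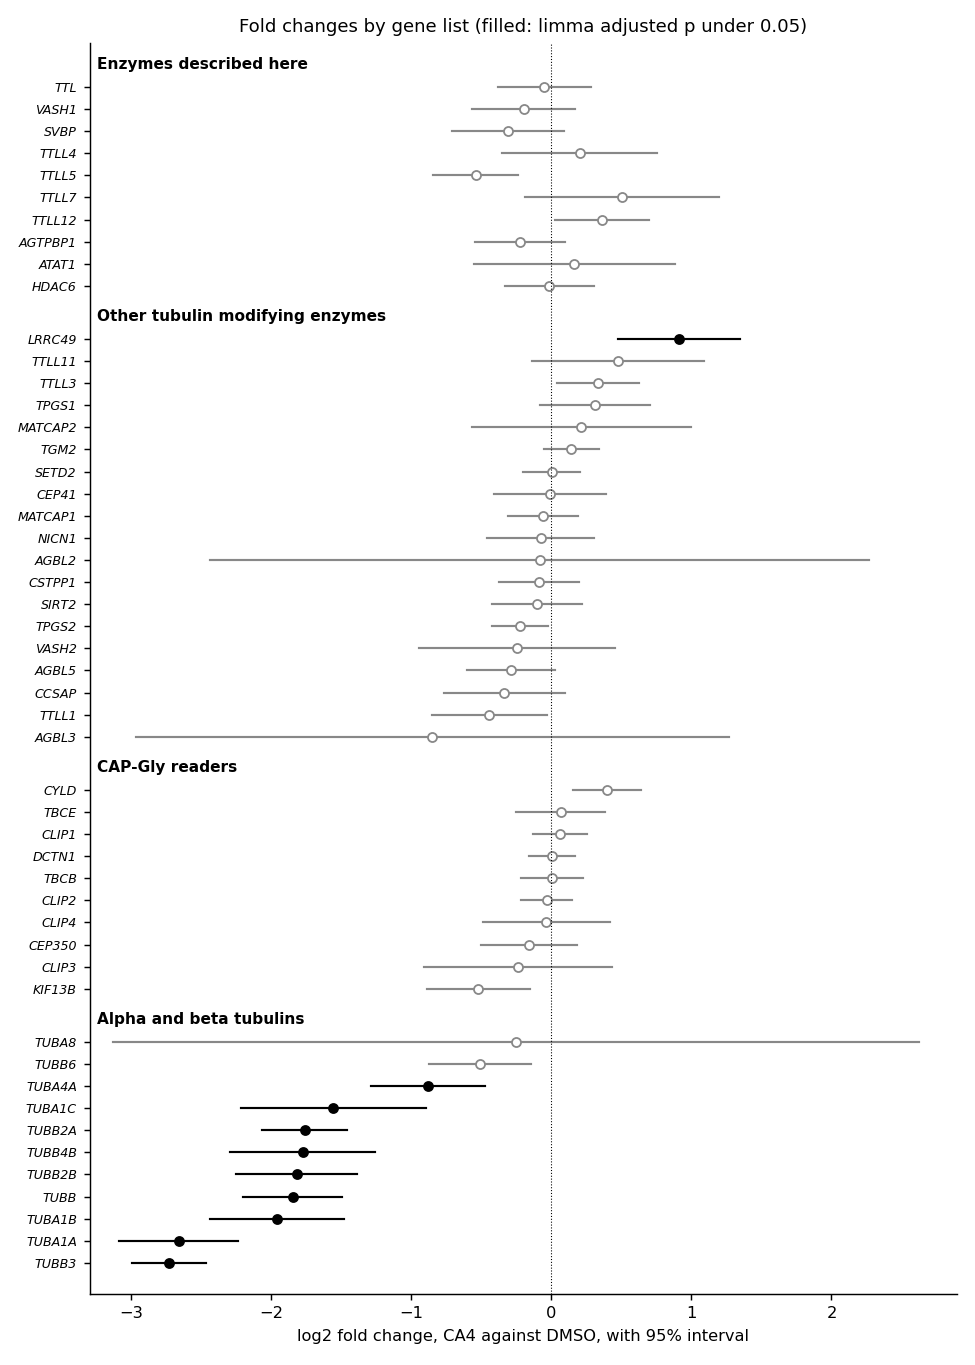
Log2 fold changes of CA4 against DMSO with 95% intervals for the 10 enzymes, 19 other tubulin modifying enzymes or their subunits, 10 proteins with a CAP-Gly domain, and 11 alpha and beta tubulins. Filled points passed a limma adjusted p of 0.05: LRRC49 above 0 and 9 tubulins below 0.

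The enzymes differed in how strongly they were expressed. To compare genes, the mean normalized count in DMSO was divided by the length in kilobases of the longest basic coding transcript in GENCODE 29. On this scale HDAC6 had the highest mean, with 234 ± 33.6 per kilobase (SD, n = 3), and its spread overlapped that of TTLL12. SVBP with 184 ± 10.3 and TTLL12 with 183 ± 27.2 followed and did not differ beyond their spread. TTLL5 with 132 ± 18 and TTL with 111 ± 20.7 came next and overlapped, as did TTL and VASH1 with 84.5 ± 18. VASH1 also overlapped TTLL4 with 65.6 ± 18.2, and TTLL4 overlapped AGTPBP1 with 61 ± 3.13. TTLL7 with 41 ± 13.8 and ATAT1 with 27.9 ± 9.66 had the lowest means, and their ranges overlapped (SD, n = 3 each). The range of TTLL7 also overlapped that of TTLL4. The order depends on the length used. Per kilobase of all annotated exons TTLL12 was the highest with 134, and TTL, SVBP and HDAC6 lay close together at 101, 100 and 92.7. ATAT1 was the lowest on both scales, with 51 to 104 recovered reads per library.

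TTL, the ligase that adds tyrosine back to free alpha tubulin, is the gene ENSG00000114999 at chr2:112482154-112541739 in GRCh38. Replicates 1, 2 and 3 of DMSO gave 1922, 1378 and 1452 normalized counts, and those of CA4 gave 1543, 1367 and 1638. The CA4 values lay inside the DMSO range apart from replicate 2, and the high DMSO library was the same replicate 1 that was highest in dividing cell markers. In CA4 it was otherwise: replicate 3 was highest for TTL and lowest in those markers. A link between TTL and these markers was not tested. The log2 fold change of TTL was -0.05 (SE 0.14, limma adjusted p = 0.871). Its 95% interval corresponds to 0.768 to 1.21 times the DMSO level. Without DMSO replicate 1 the log2 fold change turned to 0.096 and without CA4 replicate 2 to 0.022.

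VASH1, the carboxypeptidase that removes the tyrosine (ENSG00000071246, chr14:76762189-76783015), was at 440, 602 and 410 normalized counts in DMSO and at 396, 431 and 421 in CA4. DMSO replicate 2 stood above the other 5 libraries, which lay within 396 to 440. The log2 fold change of -0.20 (SE 0.16) did not pass (limma adjusted p = 0.504), and without DMSO replicate 2 it was -0.03. In GENCODE 29, 24.2% of the exon bases of VASH1 also belong to noncoding genes, among them VASH1-AS1 on the opposite strand. Whether the counting used strand is not given in the sources used here, so reads of the opposite-strand gene and of VASH1 cannot be told apart.

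SVBP, the small partner protein that VASH1 needs for stability and activity (ENSG00000177868, chr1:42807052-42817252), was at 118, 129 and 117 normalized counts in DMSO and at 107, 99.9 and 86.9 in CA4. All 3 CA4 libraries were lower than all 3 DMSO libraries, by a small margin. A log2 fold change of -0.31 (95% interval -0.71 to 0.09) did not pass (limma adjusted p = 0.336). Exons of ERMAP and TMEM269, both on the opposite strand, cover part of SVBP, 9.02% of its exon bases together, with the same limit.

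Among the glutamylases, which build the glutamate side chains, TTLL5 came nearest to the threshold. TTLL5 (ENSG00000119685, chr14:75633625-75955078), an enzyme known to start side chains, was at 711, 544 and 606 normalized counts in DMSO and at 429, 451 and 391 in CA4. The groups did not overlap, and the gap between the lowest DMSO and the highest CA4 library was wider than the range of the CA4 libraries. The means were 620 ± 84.3 and 424 ± 30.3 (SD, n = 3 each). This is a log2 fold change of -0.54 (SE 0.13, 95% interval -0.85 to -0.24), or 0.687 times the DMSO level, with a limma adjusted p of 0.0576 that misses the threshold. TTLL5 was lower in CA4 under all 16 alternatives, and its adjusted p ran from 0.00832 in DESeq2 to 0.171 in limma without CA4 replicate 3. It passed in 4 of the 16, among them DESeq2, limma after scaling libraries to equal totals (adjusted p = 0.0402, with a shift of -0.10 in the median log2 fold change of all genes that TTLL5 shared) and limma on genes averaging 50 or more (adjusted p = 0.0496). Exons of other genes, mainly FLVCR2 on the same strand, cover 3.69% of the exon bases of TTLL5.

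TTLL4 and TTLL7, the other glutamylases, were higher on average in CA4, and their libraries were widely spread. TTLL4 (ENSG00000135912, chr2:218710845-218755416) was at 422, 243 and 312 normalized counts in DMSO and at 355, 298 and 462 in CA4. The ranges overlapped, with 1 library of each group outside the range of the other, and the log2 fold change was 0.20 (SE 0.24, limma adjusted p = 0.661). It lay near 0 without DMSO replicate 2 (0.011) or CA4 replicate 3 (0.034) and at 0.408 without DMSO replicate 1. TTLL7 (ENSG00000137941, chr1:83865028-83999150), which glutamylates beta tubulin, was at 371, 202 and 409 in DMSO and at 329, 524 and 509 in CA4. Here 2 CA4 libraries lay above all DMSO libraries and replicate 1 of CA4 lay below 2 of them. The log2 fold change of 0.50 (SE 0.30) had a 95% interval of 0.877 to 2.29 times the DMSO level (limma adjusted p = 0.363). It was 0.189 without DMSO replicate 2 and up to 0.721 without CA4 replicate 1.

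TTLL12, a family member for which no glutamate ligase activity is established (ENSG00000100304, chr22:43166622-43187133), was at 696, 640 and 517 normalized counts in DMSO and at 813, 866 and 693 in CA4. The groups overlapped only in that CA4 replicate 3 lay just under DMSO replicate 1. TTLL12 had a log2 fold change of 0.36 (SE 0.14, 95% interval 0.025 to 0.70), with an unadjusted p of 0.0383 and a limma adjusted p of 0.189.

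AGTPBP1, also called CCP1, a carboxypeptidase that shortens glutamate side chains (ENSG00000135049, chr9:85546539-85742029), was at 288, 270 and 260 normalized counts in DMSO and at 251, 248 and 203 in CA4. Every CA4 library was lower than every DMSO library, and the log2 fold change of -0.23 (SE 0.14) did not pass (limma adjusted p = 0.384). With single libraries left out it ran from -0.28 to -0.126, the latter without CA4 replicate 3. The coefficient of variation over the DMSO libraries was 5.13% for AGTPBP1 and 5.59% for SVBP, against 33.7% for TTLL7 and 34.6% for ATAT1. Over the CA4 libraries it was 11.6% for AGTPBP1 and lowest, 4.29%, for VASH1.

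ATAT1, the alpha tubulin acetyltransferase (ENSG00000137343, chr6:30626842-30646823), was at 75.3, 47.7 and 98.8 normalized counts in DMSO and at 71.5, 99.9 and 70.2 in CA4. The CA4 values fell within the DMSO range except for replicate 2, which was higher by about 1 count. For ATAT1 the log2 fold change was 0.16 (SE 0.31, limma adjusted p = 0.799), and its 95% interval, 0.681 to 1.84 times the DMSO level, is too wide to exclude a moderate change. HDAC6, the deacetylase (ENSG00000094631, chrX:48801377-48824982), was at 1032, 1092 and 823 in DMSO and at 1076, 960 and 868 in CA4. All 3 CA4 values lay inside the DMSO range. For HDAC6 it was -0.02 (SE 0.14, limma adjusted p = 0.961), with a 95% interval from 0.793 to 1.23 times the DMSO level. With single libraries left out, the direction turned for both genes.

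Opposed enzymes were then compared within each library, where the library's scaling factor cancels. The log2 ratio of TTL to VASH1 was 2.123, 1.193 and 1.821 for DMSO, in replicate order, and 1.959, 1.663 and 1.957 for CA4. The difference between treatments was 0.147 and the groups overlapped (two-sided exact permutation p = 0.8), and without DMSO replicate 2 it was -0.112. The mean log2 level of TTLL4, TTLL5 and TTLL7 relative to AGTPBP1 was 0.739, 0.146 and 0.71 in DMSO and 0.55, 0.734 and 1.151 in CA4. It differed by 0.28, less than the SD of either group (two-sided exact permutation p = 0.5), and by 0.087 without DMSO replicate 2. The log2 ratio of ATAT1 to HDAC6 was -3.759, -4.489 and -3.047 in DMSO and -3.892, -3.253 and -3.609 in CA4. It differed by 0.18 (two-sided exact permutation p = 0.8), and by -0.182 without DMSO replicate 2. After Benjamini-Hochberg adjustment over the 3 ratios the exact p was 0.8 for each, and 0.1 is the smallest p that 3 libraries against 3 allow. No shift in these 3 ratios was detectable with 3 libraries per treatment. TTLL5 was lower and TTLL4 and TTLL7 were higher on average in CA4, so their mean joins opposite differences. Other enzymes with these activities, such as MATCAP1, were not part of the ratios.

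**Figure D3:**
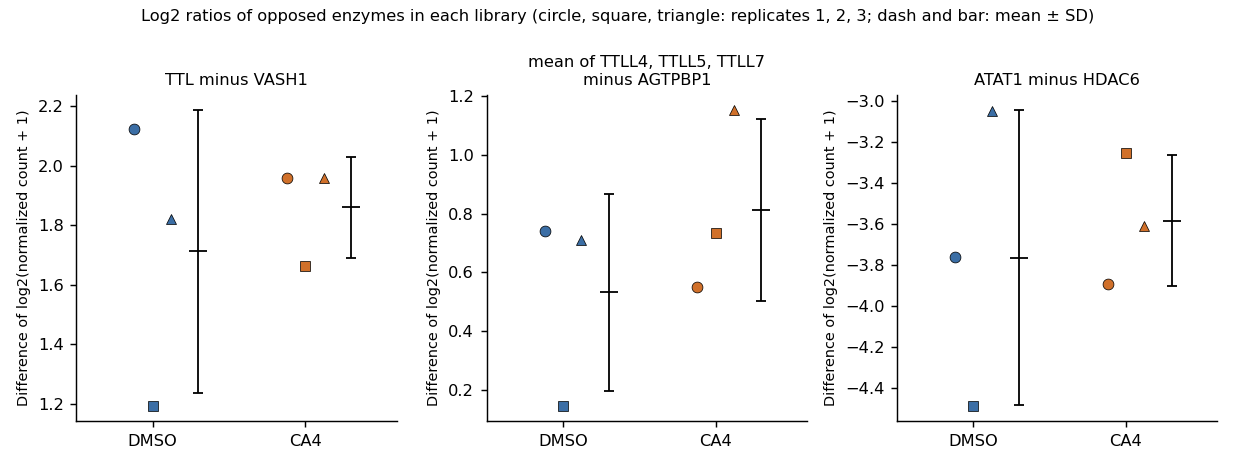
Log2 ratios of opposed enzymes in each library, as differences of log2(normalized count + 1): TTL against VASH1, the mean of TTLL4, TTLL5 and TTLL7 against AGTPBP1, and ATAT1 against HDAC6. Symbols are replicates, a dash and bar give the mean ± SD, and DMSO and CA4 overlap in all 3 panels.

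The enzyme transcripts were also set against the alpha tubulin transcripts, a comparison chosen after the values were seen. Summed over the 5 tested alpha tubulins, the DMSO libraries held 49692, 34777 and 35801 normalized counts and the CA4 libraries 9992, 10082 and 7623, and the CA4 mean was 0.23 times the DMSO mean. TTL amounted to 38.7, 39.6 and 40.6 normalized counts per 1000 of alpha tubulin in the DMSO libraries. In CA4 the same ratio was 154.5, 135.5 and 214.9 (two-sided exact permutation p = 0.1, the smallest possible). HDAC6 went from 25.1 ± 5.6 to 105.6 ± 9.49 per 1000 and TTLL5 from 15.6 ± 1.31 to 46.3 ± 4.41 (SD, n = 3 each). For each of the 10 enzymes all 3 CA4 libraries lay above all 3 DMSO libraries in this ratio, as they did for 95.1% of all tested genes, so the count shows nothing particular to the enzymes. The mean ratio was 2.97 times as high for TTLL5 and 6.15 times for TTLL7, the lowest and the highest. These are ratios of transcripts and say nothing of the protein pools, and the fall of alpha tubulin enters all 10.

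The alpha tubulin messages were also compared by their last codon. TUBA4A, the gene that ends in a glutamate codon, made up 1.29%, 1.82% and 1.32% of alpha tubulin normalized counts in DMSO and 2.57%, 3.37% and 4.59% in CA4. The groups did not overlap (two-sided exact permutation p = 0.1, the smallest possible), and leaving out 1 library gave differences of 1.5 to 2.5 percentage points around the 2.03 of all libraries. Relative to the same alpha tubulin sum, 95.1% of all tested genes lay higher in every CA4 library. The lack of overlap thus shows nothing particular to TUBA4A. TUBA8 averaged 7.26 normalized counts with DMSO and 14.1 with CA4, where its libraries held 6.77, 0 and 35.7. Its CA4 mean rests on replicate 3, and its log2 fold change was -0.25 (limma adjusted p = 0.931). TUBA8 added little: both genes without a final tyrosine codon together made up 1.3% to 1.84% in DMSO and 2.64% to 5.06% in CA4. TUBA4A itself fell, so its larger share goes with a larger fall of the others. This quantity was chosen after its values were seen.

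**Figure D4:**
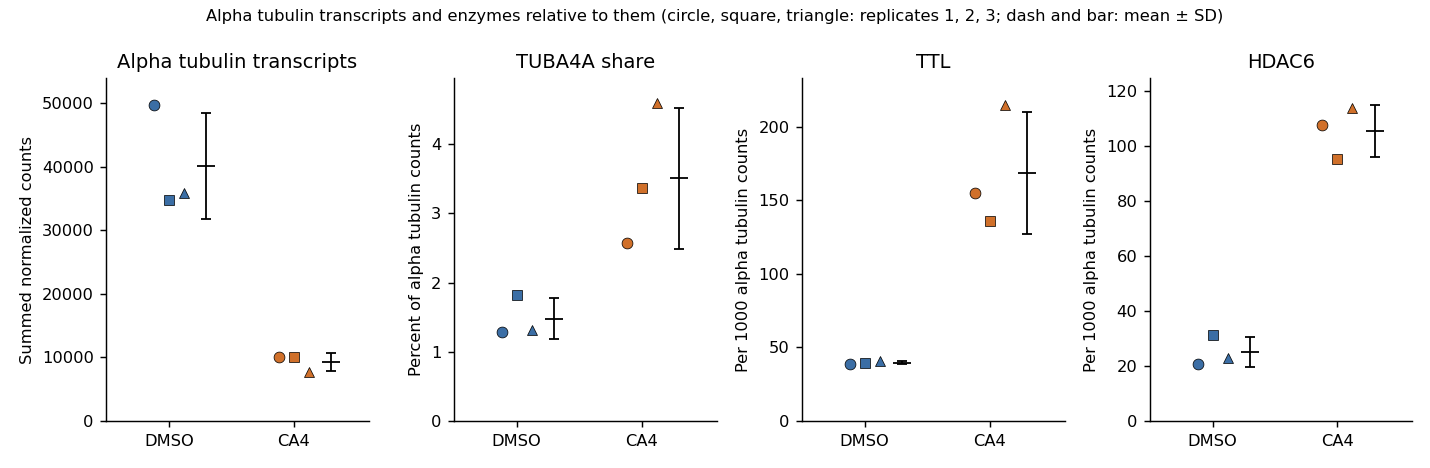
Summed normalized counts of 5 alpha tubulins, the share of TUBA4A among them in percent, and TTL and HDAC6 per 1000 alpha tubulin normalized counts, in each library, with vertical axes from 0. Symbols are replicates and a dash and bar give the mean ± SD; the alpha tubulin sum is lower, and the other 3 quantities are higher, in every CA4 library than in every DMSO library.

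A wider list held 27 other enzymes of tubulin modification and subunits of their complexes. It was written with earlier results of these data known, and 19 were abundant enough to be tested. The remaining 8, among them TTLL2, TTLL6, TTLL8, TTLL10 and AGBL1, averaged under 10 normalized counts. Of the 19, 1 passed, higher in CA4, against 2.97% of all tested genes that passed as higher, and 0 passed as lower. The median log2 fold change was -0.078. The gene that passed was LRRC49, a subunit of the polyglutamylase complex built around TTLL1. It was at 137, 119 and 94.0 normalized counts in DMSO and at 240, 195 and 220 in CA4, with no overlap, and its log2 fold change was 0.91 (SE 0.19, limma adjusted p = 0.0399). The call is a narrow one. It was lost in 5 of the 6 fits without a library, all but that without DMSO replicate 1, with adjusted p-values from 0.0649 to 0.133, and also without the low count filter (0.0526), after scaling to equal totals (0.0541) and without the variance trend (0.0688), while the log2 fold change stayed between 0.76 and 1.03.

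The catalytic subunit and the other subunits of that complex did not pass the threshold. TTLL1 itself had a log2 fold change of -0.44 (limma adjusted p = 0.191), TPGS2 of -0.22 (0.177), TPGS1 of 0.31 (0.328), NICN1 of -0.08 (0.826) and CSTPP1 of -0.09 (0.72). TTLL3, an enzyme that adds glycine to tubulin, was higher in every CA4 library, with 956, 1198 and 1273 normalized counts in DMSO and 1408, 1335 and 1545 in CA4. Its log2 fold change of 0.33 did not pass (limma adjusted p = 0.173). Of the 19 tested genes of the wider list, 3 were higher in every CA4 library: LRRC49, TTLL3 and TGM2. Another 3, TTLL1, TPGS2 and AGBL5, were lower in every CA4 library. The shares over all tested genes were 14.3% and 13.4%. VASH2, the paralog of VASH1, averaged 34.9 ± 2.54 with DMSO and 29.8 ± 7.4 with CA4 (SD, n = 3). MATCAP1, a carboxypeptidase that also removes the terminal tyrosine, averaged 843 ± 78.7 and 807 ± 49.2 (SD, n = 3), a log2 difference of -0.06 (limma adjusted p = 0.785). SIRT2, a deacetylase that acts on the same lysine as HDAC6, had a log2 fold change of -0.10 (95% interval -0.42 to 0.22).

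Proteins with a CAP-Gly domain, several of which bind the tyrosine end of alpha tubulin, formed a list of 10, and all were tested. In limma 0 of the 10 passed, in edgeR 0 and in DESeq2 1, and 2 had an unadjusted p under 0.05, where the shares over all tested genes were 4.94%, 4.62%, 11.6% and 23.0%. CYLD, a deubiquitinase, was at 1345, 1532 and 1340 normalized counts in DMSO and 1778, 2073 and 1710 in CA4, a log2 fold change of 0.40 (limma adjusted p = 0.0759), and was the gene that passed in DESeq2. KIF13B, a kinesin, had a log2 fold change of -0.52 (limma adjusted p = 0.103) and CEP350, a centrosomal protein, of -0.16 (0.567). With single libraries left out the value of CEP350 ran from -0.304 to -0.034. CLIP1 and DCTN1, which track growing microtubule ends and load dynein, had log2 fold changes of 0.06 and 0.005. Their 95% intervals were -0.13 to 0.25 and -0.16 to 0.17.

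TTLL5 had a neighbour that fell in CA4, found in a search made after its values were seen. Starts on the opposite strand within 1000 bases upstream were looked up in the RefSeq promoter table (GRCh38.p14) for the 9 enzymes with an entry. TTLL4 is the gene with no entry. TTLL5 was the only one of the 9 with such a neighbour among the genes of the deposited table. The neighbour was ERG28, which encodes an endoplasmic reticulum protein of sterol synthesis and starts 370 bases from TTLL5 in RefSeq. ERG28 was at 518, 564 and 562 normalized counts in DMSO and at 338, 372 and 302 in CA4. All CA4 libraries were below all DMSO libraries, and ERG28 passed the threshold at a log2 fold change of -0.70 with SE 0.12 (limma adjusted p = 0.0219). In the 6 fits without a library its adjusted p ran from 0.0289 to 0.0997, and ERG28 missed the threshold when replicates 2 or 3 of DMSO or 1 or 3 of CA4 were left out, and also without the variance trend (0.0618). It passed in 11 of all 16 alternatives. In GENCODE 29 the annotated span of TTLL5 begins further upstream and contains this region, so the layout holds for some of its transcripts only. A coding transcript of TTLL5 starts 35 bases from ERG28, and the 34 bases between these starts are shown because both genes were lower in every CA4 library. They lie at chr14:75661190-75661223 in GRCh38, on the strand of TTLL5, and no base is in capitals because no motif was searched.
Between ERG28 and TTLL5: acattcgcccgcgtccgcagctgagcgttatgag
Exons of ERG28 cover 0.285% of the exon bases of TTLL5. Both genes were measured in the same libraries, and a shared cause was not tested.

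**Figure D5:**
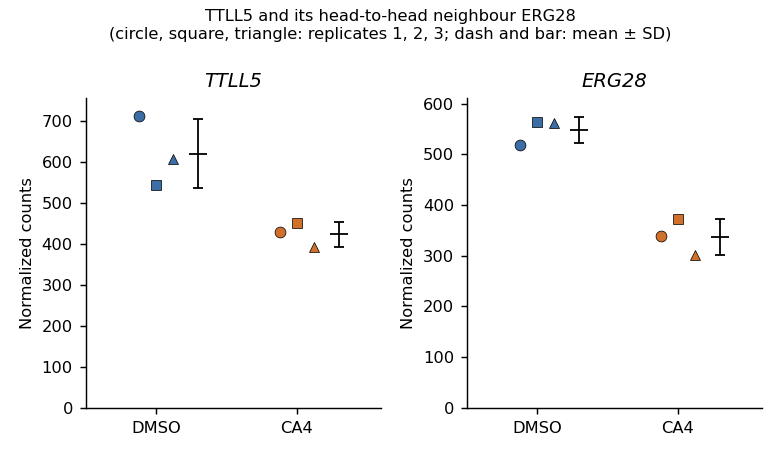
Normalized counts of TTLL5 and of ERG28, which starts on the opposite strand near a TTLL5 transcript start, in each of the 6 libraries, with vertical axes from 0, symbols for replicates and a dash and bar for the mean ± SD. In both genes the 3 CA4 libraries lie below the 3 DMSO libraries; ERG28 passed the limma threshold and TTLL5 did not.

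The genes with a pattern most like that of TTLL5 were found among 11688 other genes that averaged 50 or more normalized counts. Likeness was the root mean square difference of log2 values over the 6 libraries after each gene was centred. The 5 nearest were TYSND1, PARPBP, CEP97, HMGB3 and DCPS, with differences of 0.051 to 0.063. Their log2 fold changes lay between -0.59 and -0.47, and HMGB3 passed the threshold among them (limma adjusted p = 0.0483), though in none of the 6 fits that left out a library (0.0649 to 0.144). These genes were picked for their likeness to TTLL5, so fold changes near that of TTLL5 follow from the choice and lend it no support.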

How the data were processed

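Per the submitters' processing notes, Trim Galore 0.6.6, FastQC 0.12.1, STAR 2.7.9a, Salmon 1.8.0 and DESeq2 1.44.0 were used with GRCh38, and their roles, the annotation release and the use of strand are not given in the sources used here. The authors deposited a signal, gene counts divided by 1 factor per library, called normalized counts here. In each column 100% of the values above 0 were whole multiples of 1 step within 0.01, which gave recovered reads, possibly rounded estimates. Of 38900 Ensembl IDs, 35803 had an entry in the supplied table of names.

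The 13928 genes averaging 10 or more normalized counts were fitted with limma 3.58.1 in R 4.3.3 on log2(normalized count + 1) with treatment as the only term and a variance trend; p-values are two-sided and adjusted over all tested genes. This scale understates changes of low genes. The alternatives were pseudocounts of 0.1 and 5, other filters, quantile and total scaling, no trend, edgeR 4.0.16 and DESeq2 1.42.0 on recovered reads, a block for the replicate number, and each library left out in turn. Ratios were compared by exact permutation. Scripts were tested on simulated data. The enzymes and lists were chosen with earlier results of these data known. Named are all 10 enzymes, of the other enzymes and of the CAP-Gly proteins those past the threshold or at least the 3 with the smallest adjusted p, up to 3 tubulins, and the 5 genes nearest to the enzyme with the smallest adjusted p; other names were chosen after their values were seen. Errors are sample SDs, or limma's standard errors for fold changes. Intervals cover 95%. Some sequence is not reported here.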

Additional observations from a re-analysis of the deposited data

How the results depend on the processing

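The number of enzymes past the threshold was 0 in limma and stayed 0 in 12 of the 16 alternatives. It was 1, TTLL5, with a mean of at least 50, with libraries scaled to the same total and in DESeq2, and 2, TTLL5 and TTLL12, with the replicate block. Leaving out 1 library gave 0 to 0 enzymes. Of the 10 fold changes, 7 kept their direction in all 16 alternatives and those of TTL, ATAT1 and HDAC6 did not. With libraries left out, TTL ran from -0.144 and turned to 0.096 without DMSO replicate 1 and 0.022 without CA4 replicate 2, ATAT1 ran up to 0.4 and turned to -0.117 without DMSO replicate 2, and HDAC6 ran from -0.139 and turned to 0.025 without DMSO replicate 1, 0.065 without DMSO replicate 2 and 0.059 without CA4 replicate 3. Leaving out 1 library gave log2 ratio differences from -0.112 to 0.352 for TTL against VASH1, from 0.087 to 0.411 for TTLL4, TTLL5 and TTLL7 against AGTPBP1 and from -0.182 to 0.539 for ATAT1 against HDAC6. The lowest value of each is that without DMSO replicate 2; the cause was not tested.

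The other modifying enzymes past the threshold went from 1 to 0 without the filter, with the same total and without the trend, and were 0 to 1 without a library. The CAP-Gly proteins went from 0 to 1 in DESeq2 and 2 with the block. Over all genes, 688 passed (413 higher, 275 lower). The count was 103 without the trend (51 higher, 52 lower), 1613 in DESeq2 (907, 706), 2397 with the block (1260, 1137) and 81 to 994 without a library (50 to 605, 31 to 389). The lowest was without DMSO replicate 3 and the highest without DMSO replicate 1. Scaling to the same total gave 523 lower genes, shifted the median over all genes by -0.10 (log2) and the share of higher calls from 60.0% to 34.8%. This scaling multiplies all genes of a library by the same factor. TTLL5, at -0.64 under it, therefore moved with the rest by construction. The cause of the other changes was not tested.

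Same-numbered libraries deviated together with correlations of 0.202, 0.159 and 0.059, not all above 0.1, and no label ties a number to a day or batch, so the libraries were not treated as paired. Of the 6 libraries all but CA4 replicate 3 correlated best with their own number; CA4 replicate 3 did so with DMSO replicate 2 (0.074). The block brought TTLL5 (limma adjusted p = 0.0264) and TTLL12 (0.0388) past the threshold and called all 688 genes again. In same-numbered pairs the ratio differences were 0.147, 0.28 and 0.18 on average, as without pairing, with sign-flip p-values of 0.75, 0.5 and 1. ATAT1, at 51 to 104 reads, and TTLL7, with its wide spread, have the least precise fold changes of the 10.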
